A study of Rattus norvegicus with 8 samples.

Results

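Pacemaker calcium, HCN and leak channels were examined as a family of 8 genes, *Cacna1c*, *Cacna1d*, *Cacna1g*, *Cacna1h*, *Hcn2*, *Hcn3*, *Hcn4* and *Nalcn*, in the *substantia nigra* (SN) of rats that overexpressed human α-synuclein (αSyn). Every non-control probe whose RefSeq accession on the array maps to 1 of these rat symbols was taken, whatever its values. The array names 16678 genes through that map. This gave 9 probes for 7 genes, of 45598 probes in all, and 8 of the 9 passed the filter on dim probes, of 33848 that passed it. The remaining probe, the third for *Cacna1c*, was well above background on 0 of 8 arrays. *Nalcn* has no probe that the accession table pairs with it, so it was not measured here.

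Female Sprague Dawley rats, 3 months old at surgery, received an injection on 1 side of the brain into the SN. The vector was an adeno-associated virus of serotype AAV6 that carried either wild-type human αSyn (AAV-αSyn, 5.2e10 vector genomes per µL) or was a control vector (AAV-Null, 5.3e9 vector genomes per µL). The SN of the injected side was dissected 20 weeks later, and Cy3-labelled cRNA made from its total RNA was hybridised to 1-colour Agilent rat expression arrays, 4 per group on 1 slide in 1 scan. The methods count fewer biological replicates per group than these 4 arrays and no label names an array's animal, so n counts arrays, which may come from fewer animals, and every SD, interval and p measures the spread between arrays. The methods do not give the promoter that drives αSyn, and the titre goes with the group, so an effect of αSyn and an effect of vector dose cannot be told apart. The tissue is a mixture of cells, in which fewer cells of a type and less RNA per cell cannot be told apart.

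Dopaminergic neurons of the SN fire on their own, without synaptic drive. L-type calcium channels, whose pores are made by *Cacna1c* and *Cacna1d*, let calcium in during each cycle, and the *Cacna1d* type opens at rather negative potentials. T-type channels (*Cacna1g* and *Cacna1h*) open at low voltages and carry rebound bursts in many neurons, thalamic relay cells among them, HCN channels carry the inward current that hyperpolarization turns on, and *Nalcn* encodes a sodium leak channel that holds the resting potential closer to threshold.

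Promoter sequences are shown first for *Hcn2* and *Cacna1c*, which over all 8 arrays had the widest and the narrowest spread of the measured genes that the RefSeq promoter table holds, because the spread between arrays sets what could be seen in the comparison. The table (build GRCr8) holds 4 of the 8 genes, *Cacna1c*, *Cacna1d*, *Hcn2* and *Nalcn*. Each sequence is the 250 bases before the start of the gene, 5′ to 3′ on the gene's own strand, at chr7:10639458-10639707 on the minus strand for *Hcn2* and chr4:154051749-154051998 on the minus strand for *Cacna1c*. Capitals mark GC boxes (GGGCGG) and CCAAT boxes (CCAAT), searched on both strands.
Hcn2: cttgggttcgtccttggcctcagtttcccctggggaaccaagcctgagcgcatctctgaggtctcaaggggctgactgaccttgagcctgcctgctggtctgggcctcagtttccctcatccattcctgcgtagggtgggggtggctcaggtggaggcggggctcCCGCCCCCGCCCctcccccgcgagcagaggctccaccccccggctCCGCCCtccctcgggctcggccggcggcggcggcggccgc
Cacna1c: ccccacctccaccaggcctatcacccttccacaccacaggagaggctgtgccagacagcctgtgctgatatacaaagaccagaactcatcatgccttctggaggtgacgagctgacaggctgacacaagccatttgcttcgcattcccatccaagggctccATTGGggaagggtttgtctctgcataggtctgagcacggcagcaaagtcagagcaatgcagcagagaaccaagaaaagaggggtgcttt
The *Hcn2* promoter is 71.6% G and C and holds 3 GC boxes, and the *Cacna1c* promoter is 54.4% G and C and holds 1 CCAAT box. Among all 27457 promoters of the table, 32.4% hold a GC box and 34.3% a CCAAT box. These are matches of letters and were not set against any binding data.

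Values are log2 intensities after quantile normalization, each probe on its own scale, and differences are AAV-αSyn minus AAV-Null with the limma 95% interval. The 8 arrays correlated pairwise at 0.983 to 0.993 over the tested probes, and 74.7% to 77.4% of spots were well above background. Each of the 8 tested member probes was above background on all 4 arrays of both groups. The dissected tissue carried the markers of dopaminergic neurons on every array, with *Th*, the rate-limiting enzyme of dopamine synthesis, at 16.30 to 16.70 in AAV-Null and 15.88 to 16.01 in AAV-αSyn.

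No measured member passed the test for a difference between the groups. Of the 7 genes, 3 had a higher and 4 a lower mean in AAV-αSyn, where 47.2% of all probes were lower, with a median difference of -0.03 on the log2 scale against 0.01 over all probes tested. By limma, 0 of the 7 had an adjusted p under 0.05, where 0.0148% of all tested probes did, and the lowest adjusted p was 0.924. At an unadjusted p under 0.05 the count was also 0 of 7, where 5.69% of all probes passed, 3.42% higher and 2.27% lower in AAV-αSyn. The groups of arrays overlapped for all 7 genes, and 3.83% of all probes had groups that did not overlap, 2.6% with AAV-αSyn the higher. The typical size of the difference was that of the array as a whole, with a median absolute value of 0.0993 for the members and 0.0964 for all probes.

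**Figure D1:**
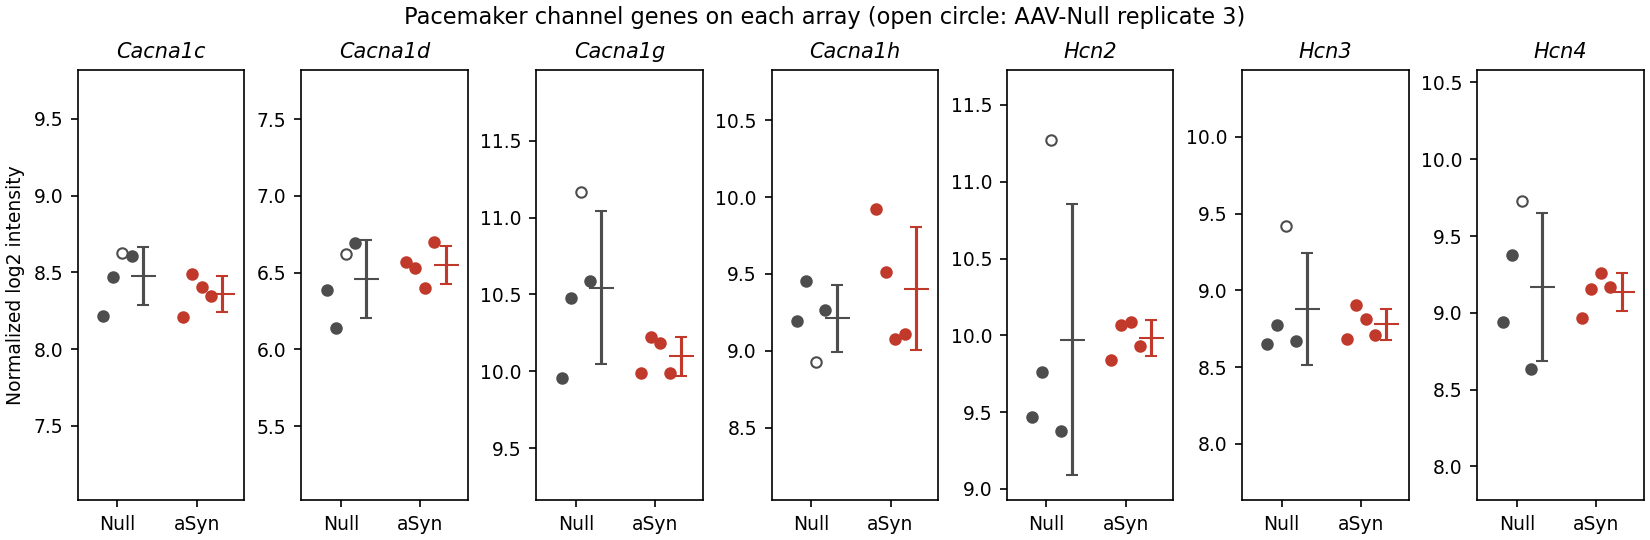
Normalized log2 intensity of the 7 measured genes (1 panel each, axes of equal length at different levels) on the 4 AAV-Null arrays (grey) and 4 AAV-aSyn arrays (red), with the mean and SD beside the points. The open circle, AAV-Null replicate 3, is the highest point for Hcn2 (11.27), Hcn3 (9.42), Hcn4 (9.73), Cacna1g (11.17) and Cacna1c (8.62), and the groups overlap in every panel.

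Of the L-type channels, *Cacna1c* was at 8.21, 8.47, 8.62 and 8.61 on AAV-Null replicates 1 to 4 and at 8.21, 8.49, 8.40 and 8.34 on AAV-αSyn replicates 1 to 4. The means were 8.48 ± 0.19 (SD, n = 4) and 8.36 ± 0.12 (SD, n = 4). The lowest values of both groups were the same to 2 decimals, and the groups overlapped. The difference was -0.12 (SE 0.112, interval -0.38 to 0.14), or a fold of 0.922, with an adjusted p of 0.971 by limma and 0.343 in the exact permutation test. A dimmer probe of *Cacna1c*, at 4.11 to 5.12 in AAV-Null and 4.36 to 4.44 in AAV-αSyn, gave a difference of -0.13 with an interval of -0.58 to 0.31.

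*Cacna1d* was at 6.38, 6.14, 6.62 and 6.69 on the AAV-Null arrays and 6.57, 6.53, 6.40 and 6.70 on the AAV-αSyn arrays. The highest value of each group was almost the same, the lowest array was AAV-Null replicate 2, and the groups overlapped. The difference was 0.09 (SE 0.134, interval -0.22 to 0.40), with an adjusted p of 0.975 by limma and 0.571 in the exact permutation test. The intervals limit the fold in AAV-αSyn to 0.771 to 1.102 for *Cacna1c* and to 0.861 to 1.32 for *Cacna1d*, under limma's model.

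Of the T-type channels, *Cacna1g* had the largest difference of the family. It was at 9.95, 10.47, 11.17 and 10.59 on the AAV-Null arrays and at 9.99, 10.22, 10.19 and 9.99 on the AAV-αSyn arrays. AAV-Null replicates 2, 3 and 4 lay above every AAV-αSyn array, and AAV-Null replicate 1 lay below them all. The difference was -0.45 (SE 0.229, interval -0.97 to 0.08), a fold of 0.733, with an unadjusted p of 0.0853, an adjusted p of 0.924 by limma and 0.143 in the exact permutation test. It depended on single arrays: without AAV-Null replicate 3 it was -0.24 (limma adjusted p = 0.764), and without AAV-Null replicate 1 it was -0.64 (unadjusted p = 0.0079, limma adjusted p = 0.585).

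Thalamic relay neurons also express *Cacna1g*, so the levels of their markers are given beside it. Of 8 genes on the list of thalamic markers, 5 were tested (*Prkcd*, *Lef1*, *Slc17a6*, *Calb2* and *Ramp3*), all 5 had lower means in AAV-αSyn and 2 had an unadjusted p under 0.05, where 2.27% of all probes were lower at that level. Their mean log2 intensity was 11.45, 12.30, 12.80 and 12.32 on the AAV-Null arrays and 11.21, 11.77, 11.67 and 11.27 on the AAV-αSyn arrays. AAV-Null replicate 3 was highest and AAV-Null replicate 1 lowest of the AAV-Null arrays in this mean and for *Prkcd*, *Lef1* and *Ramp3*, but not for *Slc17a6*, which was highest on AAV-Null replicate 4 (14.34), or *Calb2*, which was lowest on AAV-Null replicate 3 (15.25). *Cacna1g*, *Cacna1c* and *Hcn3* had the same highest and lowest AAV-Null arrays. So did 13.8% of all probes, the means of 4 of the 6 related channel lists and the mean of 1 of the 10 marker lists, the thalamic one. *Prkcd*, a protein kinase C isoform that marks thalamic relay neurons, ranged from 10.96 to 13.54 in AAV-Null and from 10.22 to 11.58 in AAV-αSyn, and no marker tested on this list was at background. *Slc17a6* and *Calb2* are also expressed in neurons in and next to the SN. The part of such tissue in the *Cacna1g* values was not tested.

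*Cacna1h* went the other way. It was at 9.19, 9.45, 8.93 and 9.27 on the AAV-Null arrays and at 9.92, 9.51, 9.07 and 9.11 on the AAV-αSyn arrays. AAV-αSyn replicate 1 was the highest array and AAV-αSyn replicates 3 and 4 fell among the AAV-Null values. The difference was 0.19 (SE 0.204, interval -0.28 to 0.66), with an adjusted p of 0.974 by limma and 0.486 in the exact permutation test. Without AAV-αSyn replicate 1 it was 0.02. Whether *Cacna1g* and *Cacna1h* differed from each other in their response was not tested.

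Of the HCN channels, *Hcn2* was at 9.47, 9.76, 11.27 and 9.38 on the AAV-Null arrays and at 9.84, 10.06, 10.09 and 9.93 on the AAV-αSyn arrays. AAV-Null replicate 3 stood 1.74 above the mean of the other 3 AAV-Null arrays, which all lay below every AAV-αSyn array. With all 8 arrays the means were 9.97 ± 0.88 (SD, n = 4) in AAV-Null and 9.98 ± 0.12 (SD, n = 4) in AAV-αSyn. The difference was 0.01 (SE 0.388, interval -0.88 to 0.90), so that folds from 0.542 to 1.87 lie within the interval, with an adjusted p of 0.999 by limma. Without AAV-Null replicate 3 the difference was 0.45 (unadjusted p = 0.00618, limma adjusted p = 0.508) and the groups did not overlap. In that fit 9.3% of all probes had groups that did not overlap, 5.97% with AAV-αSyn the higher, and 8.13% had an unadjusted p under 0.05.

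*Hcn3* was at 8.65, 8.77, 9.42 and 8.67 in AAV-Null and at 8.69, 8.91, 8.82 and 8.71 in AAV-αSyn. AAV-Null replicate 3 again lay above all other arrays, which ran from 8.65 to 8.91. The difference was -0.10 (SE 0.173, interval -0.50 to 0.30), with an adjusted p of 0.982 by limma and 0.886 in the exact permutation test. Without AAV-Null replicate 3 it was 0.08 (limma adjusted p = 0.843).

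*Hcn4*, whose product opens the most slowly of the family, was at 8.94, 9.37, 9.73 and 8.63 in AAV-Null and at 8.96, 9.16, 9.26 and 9.17 in AAV-αSyn. The AAV-Null values spanned the AAV-αSyn values on both sides. The difference was -0.03 (SE 0.222, interval -0.54 to 0.48), with an adjusted p of 0.994 by limma and 0.943 in the exact permutation test. Without AAV-Null replicate 3 it was 0.15 (limma adjusted p = 0.873).

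**Figure D2:**
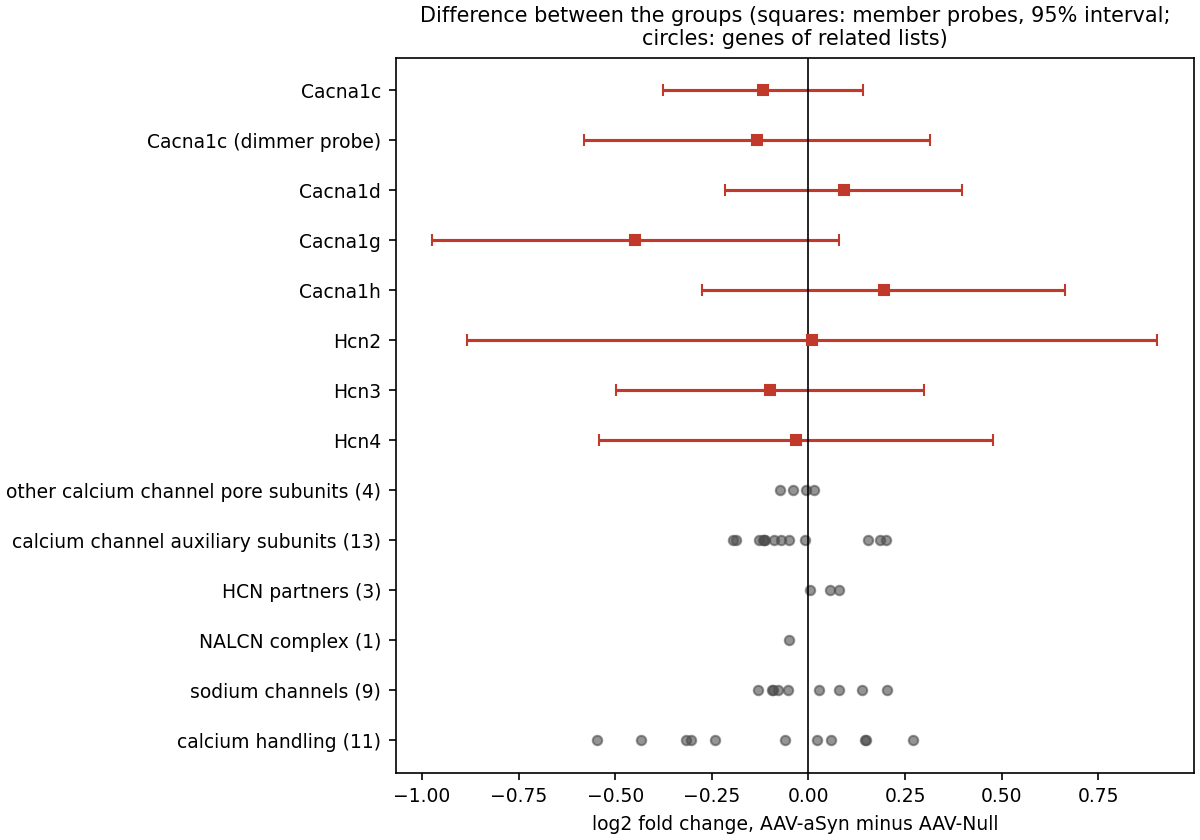
Difference between the groups in log2 intensity (x axis, AAV-aSyn minus AAV-Null) for the 8 tested member probes, with 95% intervals of the limma fit (red squares), and for 41 genes of related lists without intervals (grey circles, the number of genes in parentheses). All 8 intervals include 0, and the widest is that of Hcn2 (-0.88 to 0.90).

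With all 8 arrays the median spread of the members was wider than that of all probes. The median SD over arrays within groups was 0.322 for the 7 genes and 0.189 for all probes, and *Hcn2* stood at the 94.7th percentile of all probes, *Cacna1g* at the 83.3rd and *Hcn4* at the 82.1st. *Cacna1c* was at the 39th percentile. Part of this rested on AAV-Null replicate 3: without it the median SD was 0.200 for the members and 0.149 for all probes, and the SD of *Hcn2* went from 0.631 to 0.156 (the 52.3rd percentile), of *Hcn3* from 0.268 to 0.0899 (the 24.1st), of *Cacna1g* from 0.363 to 0.234 (the 71.3rd) and of *Hcn4* from 0.352 to 0.254 (the 74.7th). The SD of *Cacna1h* stayed at 0.321 (the 82.8th), that of *Cacna1d* was 0.200 (the 64.2nd) and that of *Cacna1c* 0.155 (the 52.1st), so 6 of the 7 still lay above the median spread of all probes. AAV-Null replicate 3 had the highest of the 8 values for 5 of the 7 genes, where it had the highest for 25.6% of all probes and the lowest for 28.4%. Its excess over the mean of the other AAV-Null arrays was 1.74 for *Hcn2*, 0.83 for *Cacna1g*, 0.75 for *Hcn4* and 0.72 for *Hcn3*. For *Cacna1d* and *Cacna1c* it was 0.21 and 0.19, and for *Cacna1h* it was -0.37. The mean correlation of that array with the other 7 was 0.986, as for AAV-αSyn replicate 1, against 0.988 to 0.990 for the rest.

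**Figure D3:**
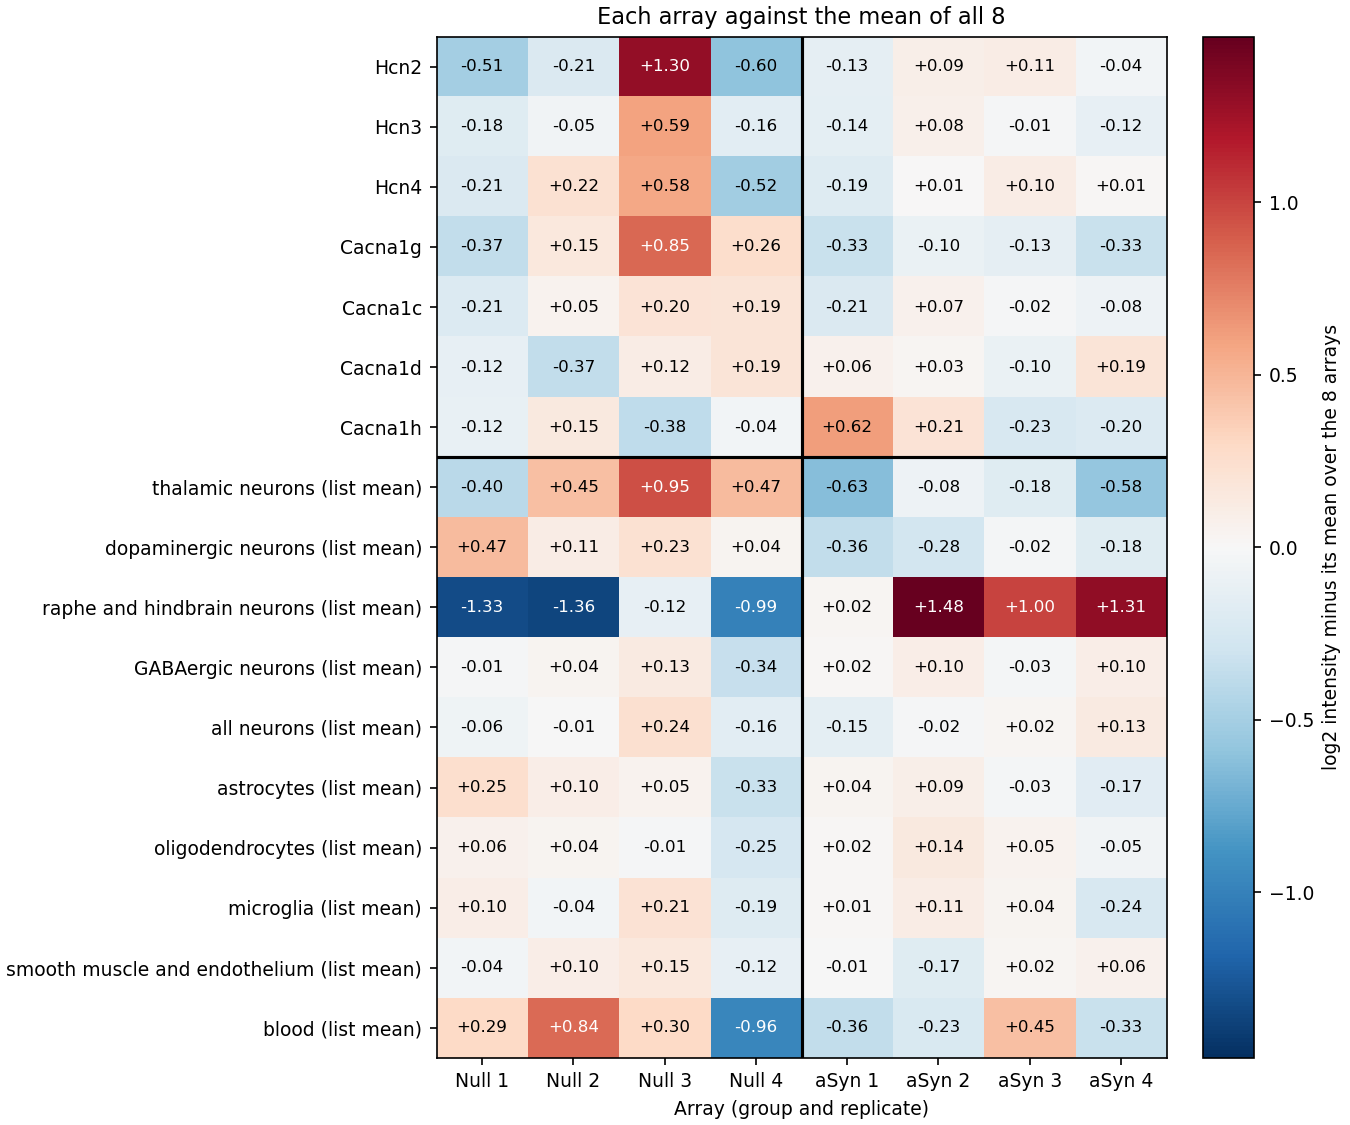
Log2 intensity of each measured gene, and mean log2 intensity of 10 marker lists, on each of the 8 arrays minus the mean over all 8 (colour and printed value; red above, blue below). AAV-Null replicate 3 is the highest array for Hcn2 (+1.30), Cacna1g (+0.85) and the thalamic list (+0.95), and for Cacna1h it is below the mean (-0.38). It is also the highest for the GABAergic (+0.13), all neurons (+0.24), microglia (+0.21) and smooth muscle and endothelium (+0.15) lists. The remaining lists are highest on other arrays.

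By mean absolute difference of centred log2 values over the 8 arrays, *Syt3* (0.0823), a synaptotagmin, was among the genes most like *Hcn2*, over 16140 probes of named genes above background on all 8 arrays. For *Cacna1g* the nearest were *Gpr153* (0.0787) and *C1qtnf4* (0.0886), and for *Hcn4* they were *Tnrc18* (0.0722) and *Ldb1* (0.0745).

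Of the 49 genes on the list of related channel and calcium genes, 41 were tested. By limma 0 of them passed the adjustment, 0 were higher and 1 was lower at an unadjusted p under 0.05, which is 2.44% against 5.69% of all probes, and the median difference was -0.05. The other calcium channel pore subunits ran from -0.07 to 0.02 (4 tested of 6) and the auxiliary subunits from -0.19 to 0.20 (13 of 14, 3 higher and 10 lower). For the leak channel complex only *Unc79*, which encodes a large accessory protein, was tested, at -0.05. The sodium channels of spiking ran from -0.13 to 0.20 (9 of 9) and the calcium handling genes from -0.55 to 0.27 (11 of 13).

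The exception was *Itpr1*, the receptor through which inositol trisphosphate releases calcium from the endoplasmic reticulum. It was at 11.97, 11.89, 11.90 and 12.37 on the AAV-Null arrays and at 11.46, 11.49, 11.56 and 11.44 on the AAV-αSyn arrays. All AAV-αSyn arrays lay below all AAV-Null arrays, which held in that direction for 1.23% of all probes. The difference was -0.55 (SE 0.116, interval -0.81 to -0.28), with an unadjusted p of 0.00149 and an adjusted p of 0.543 by limma, so it did not pass the adjustment.

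**Figure D4:**
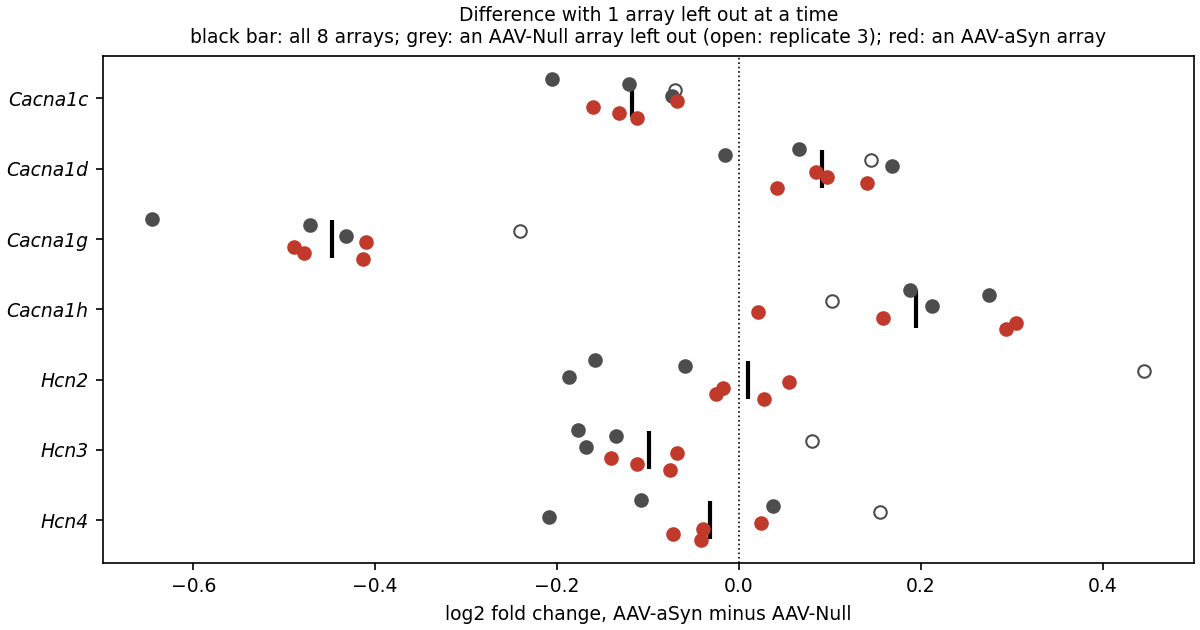
Difference in log2 intensity, AAV-aSyn minus AAV-Null, for each measured gene with all 8 arrays (black bar) and with 1 array left out at a time (points, spread vertically for legibility; grey for AAV-Null arrays, open for AAV-Null replicate 3, red for AAV-aSyn arrays). Leaving out AAV-Null replicate 3 moves Hcn2 from 0.01 to 0.45 and Cacna1g from -0.45 to -0.24, and no point passed the adjusted threshold.

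Of the other cell type markers, all 11 dopaminergic genes tested had lower means in AAV-αSyn, 5 of them at an unadjusted p under 0.05 (2.27% of all probes were lower at that level) and 0 after adjustment by limma, and their mean log2 intensity was 11.20 to 11.63 in AAV-Null and 10.80 to 11.14 in AAV-αSyn. Of the 7 raphe and hindbrain genes tested, *Dbh* and *Hoxb3* rose over background on 0 AAV-Null arrays and on 3 and 2 AAV-αSyn arrays. They passed the filter only through AAV-αSyn, so their higher means there were set by the filter. The others, *Tph2*, *Slc6a4*, *Fev*, *Slc6a5* and *Hoxa2*, also had higher means. All of these but *Fev* had an unadjusted p under 0.05 by limma (3.42% of all probes were higher at that level), and 1 passed the adjustment. The mean of all 7, with *Dbh* and *Hoxb3* included, was 4.57 to 5.81 in AAV-Null and 5.96 to 7.41 in AAV-αSyn. Of the remaining lists, 0 of 4 GABAergic genes, 1 of 6 general neuronal genes (lower), 0 of 6 each for astrocytes, oligodendrocytes, microglia, and smooth muscle with endothelium, and 0 of 4 blood genes had an unadjusted p under 0.05 by limma, where 5.69% of all probes did, and 0 passed the adjustment. The part of any of these cells in the channel values was not tested.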

How the data were processed

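RNA from the injected-side SN of rats was measured on 8 Agilent arrays in 1 colour, 4 per group, as the labels give them. In the deposited scanner files each spot has an intensity from which Feature Extraction had taken the local background, with no scaling across arrays. A second deposited table holds log2 values that the authors had quantile normalized. The submitters' processing notes give Feature Extraction 11.5.1.1 and the file headers 12.0.3.2.

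Control spots and outlier spots were left out, and log2 of the processed intensity was used. A probe was kept for the test if, on at least 1 array, at least 0.5 of its spots were well above background. After quantile normalization the spots of each probe were averaged and the groups compared with lmFit and eBayes (R 4.3.3, limma 3.58.1, data.table version 1.17.8), two-sided, with Benjamini–Hochberg adjustment over all probes tested and 0.05 as the threshold. The scripts were tested on simulated data. All 70 splits of the arrays into 4 and 4 entered the exact permutation tests, which cannot give a p below 0.0286. The number of arrays limits the precision, and array intensities give no read depth.

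Symbols came from RefSeq (assembly GRCr8), which named 21229 of 45598 probes. Positions of array probes are not given. Every probe of a member was taken, and its brightest tested probe stands for the gene. Related genes are named where their unadjusted p was under 0.05 or their groups did not overlap, and for the 3 most variable members the 2 genes nearest in profile are named. Some genes that these rules select are not reported here. The members and lists were chosen with earlier results of these data known.

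Alternatives were 75th percentile scaling, cyclic loess, normexp with an offset of 50 on the median signal and local background, no filter or stricter filters on dim probes (4 or all 8 arrays), the deposited matrix, an intensity trend, robust eBayes, array weights, the replicate number or the slide position as a block, the mean of a gene's probes, and each array left out. No column of another sample was found.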

Additional observations from a re-analysis of the deposited data

Results flagged for a closer look

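The *Hcn3* value on AAV-Null replicate 3, 9.42, stood apart from the other 3 AAV-Null arrays, at 8.65 to 8.77. Its gap to the nearest of them was 0.837 of the group's whole range, above Dixon's 95% critical value for a group of 4. Of 16 groups examined in this way (8 member probes in both groups) 1 was set apart, where chance gives 0.8.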

How the results depend on the processing

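No member passed the adjusted threshold under any of the 13 alternatives or with any array left out. Of 85 member values under those 13 alternatives, 83 kept their direction. The other 2 arose with array quality weights, which give AAV-Null replicate 3 a weight of 0.218 and AAV-Null replicate 2 a weight of 4.431: *Cacna1h* was -0.0679 and *Hcn3* was 0.0216. With these weights *Hcn2* was 0.26 (limma adjusted p = 0.497) and *Cacna1d* 0.30 (unadjusted p = 0.0299, limma adjusted p = 0.247), where 16.9% of all probes had an unadjusted p under 0.05. With 1 array left out, 10 of 56 values changed direction. The ranges were -0.0156 to 0.17 for *Cacna1d*, -0.19 to 0.45 for *Hcn2*, -0.18 to 0.0806 for *Hcn3* and -0.21 to 0.15 for *Hcn4*. Those that kept their direction were *Cacna1c* (-0.21 to -0.07), *Cacna1g* (-0.64 to -0.24) and *Cacna1h* (0.02 to 0.30). The number of probes on the whole array with an adjusted p under 0.05 was 5, and 4 to 7 under 10 alternatives. With 1 array left out it was 3 to 5, and 3 without any 1 of AAV-Null replicates 1, 2, 3 or 4. It was 12 with array weights. With a replicate block it was 0 by limma, with 2207 probes at an unadjusted p under 0.05, and the member differences were unchanged in value under this block. The cause of either shift was not tested. Arrays of the same number did not deviate together in every pair (r = 0.149, 0.264, 0.04 and -0.004 for replicates 1 to 4, across probes), and not every array correlated best with its own number. By the file headers, arrays of the same number also have the same place on opposite parts of the slide, so the replicate block is a block by slide place too.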
